A study of Homo sapiens with 12 samples.

Results

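Interferon-stimulated genes were followed in THP-1 cells, a monocytic line from an acute myeloid leukaemia with the MLL-AF9 fusion, as 33 genes chosen by name. Of the 33 genes, 32 had at least 1 count in the 12 libraries and 26 passed the filter on low counts, against 30599 genes counted and 15831 genes tested in the whole table. The 4 groups held 3 libraries each and came from cells kept for 2 h with AZ5576, known as a CDK9 inhibitor, with THZ531, an inhibitor of CDK12 and CDK13, with YKL5124, an inhibitor of CDK7, or with the vehicle DMSO. All 4 groups also had 1 mM 4-thiouridine, a label for newly made RNA, over the final 10 min, and the labels name no interferon among the treatments. The DMSO values come from 3 table columns named UT, which were taken as DMSO because no other group was left. No dose is given, a single cell line was used, and the labels do not tie libraries of a group to separate cultures, which leaves p-values as a measure of the spread between these libraries only. The values are total read counts from the 3′ ends of polyadenylated RNA, which hold RNA made before as well as during the treatment.

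Interferon-stimulated genes are switched on when type I or type III interferon binds its receptor at the cell surface. The kinases JAK1 and TYK2 then phosphorylate STAT proteins, STAT2 among them, which join IRF9 in the complex ISGF3, and that complex binds the interferon-stimulated response element in promoters. The proteins made include sensors of viral RNA, the ubiquitin-like modifier ISG15, RNA-binding proteins of the IFIT and OAS families and restriction factors such as tetherin. Many of these genes keep a low basal level in cells that have met no interferon.

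The promoters of the members were read for the core of the interferon-stimulated response element, because the same short sequence stands before genes that moved in opposite directions. The motif was GAAA, any 2 bases and GAAA again, searched on both strands and with overlapping matches allowed, in windows of 250 bases before to 50 bases after a gene's start, from RefSeq (GRCh38.p14). It was in 1255 of 35116 windows, or 3.57%, and in 22 of the 32 windows of members. Counted by gene, it stood before 18 of the 25 members in that table, or 72.0%, whether or not they passed the test. The members GBP2, IFIT2, IRF7, MX2, OAS2, OASL, TRIM22 and USP18 were not matched in it. Among the 6 members that were higher under at least 1 inhibitor, 4 had the motif, and among the 6 that were lower under at least 1 inhibitor, 3 had it. The 4 sequences of the first kind are given here on the gene's strand, with the matches in capitals and up to 20 bases on each side, fewer where the gene's start came first.
ISG15, chr1:1013364-1013419, plus strand: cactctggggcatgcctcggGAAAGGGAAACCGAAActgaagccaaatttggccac
IFI6, chr1:27672256-27672368, minus strand: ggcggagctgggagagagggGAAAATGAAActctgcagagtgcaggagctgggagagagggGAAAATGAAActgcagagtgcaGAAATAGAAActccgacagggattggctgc
BST2, chr19:17405725-17405780, minus strand: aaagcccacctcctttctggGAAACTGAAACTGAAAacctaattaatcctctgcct
RSAD2, chr2:6877612-6877661, plus strand: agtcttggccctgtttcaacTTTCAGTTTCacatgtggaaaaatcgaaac
The 3 sequences before genes that were lower follow in the same form. For IFIT3, which has more than one start in the table, the start farther along the gene is shown.
IFIT3, chr10:89332415-89332507, plus strand: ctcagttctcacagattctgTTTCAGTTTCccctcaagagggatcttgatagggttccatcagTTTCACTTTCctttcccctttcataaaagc
IFIT5, chr10:89414503-89414567, plus strand: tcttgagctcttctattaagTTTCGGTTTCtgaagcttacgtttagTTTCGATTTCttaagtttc
SAMD9, chr7:93118086-93118135, minus strand: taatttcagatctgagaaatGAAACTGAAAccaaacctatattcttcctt
IFI35, IRF9, RIGI, STAT2 and XAF1 passed the test and had no match in their windows. A match is a run of letters and says nothing of binding in these cells. The directions given here are those of the main tests and depend on the scaling. With the added fly RNA as the scale, 0, 2 and 0 of the 26 members tested were higher under AZ5576, THZ531 and YKL5124. Of all genes, 3.27%, 7.05% and 3.35% were higher at that scaling.

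Libraries held 5048370 to 12743630 human counts, with AZ5576 replicate 2 the shallowest. The members together took 0.0439%, 0.0433% and 0.041% of the human counts in AZ5576, 0.0381%, 0.0374% and 0.039% in THZ531, 0.0414%, 0.0415% and 0.0433% in YKL5124, and 0.042%, 0.0399% and 0.0416% in DMSO. The members' summed level, in counts scaled to library size with TMM factors (CPM), was 447, 433 and 416 in AZ5576, 427, 426 and 449 in THZ531, 390, 392 and 407 in YKL5124, and 390, 372 and 387 in DMSO. The THZ531 libraries were all below DMSO in the plain share and all above it in the scaled sum, so that direction depended on the scaling. Most of the members' counts belonged to BST2, and without it the scaled sum lay between 154 and 178 CPM in all 12 libraries. Of 13 monocytic markers, 12 reached 120 counts over all libraries, and CD14 was the one that did not. Their summed level was 994 to 1083 CPM in AZ5576, 1089 to 1130 CPM in THZ531, 908 to 979 CPM in YKL5124 and 800 to 854 CPM in DMSO. ELANE alone had means of 533, 577, 456 and 386 CPM in these groups. Under THZ531 CD33, CD68, ELANE, FCER1G, LYZ and TYROBP were higher than in DMSO and FCGR1A was lower. CSF1R, CSF3R, ITGAM, MPO and SPI1 did not pass, and of all genes 30.4% were higher and 32.9% lower. The part of this shift in the results was not tested. Of 14 markers of other cell types, only NKG7 reached 120 counts, CD3E, HBB and HBG1 were at 0, and the sums were 2.00 to 2.77 CPM in AZ5576, 1.65 to 1.95 CPM in THZ531, 0.666 to 1.21 CPM in YKL5124 and 0.761 to 1.70 CPM in DMSO. In bulk RNA, fewer cells of a type and less RNA per cell cannot be told apart.

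Under AZ5576, 5 of the 26 members tested were higher than in DMSO (ISG15, IFI6, IFI35, RSAD2 and BST2) and 4 were lower (IFIT5, RIGI, XAF1 and SAMD9), at an adjusted p under 0.05. That is 34.6% of the members tested, beside 41.7% of all genes tested (18.6% higher and 23.1% lower). The rises were small, from 1.20-fold to 1.67-fold, and the falls ran from 1.25-fold to 2.88-fold. The median log2 fold change of the members tested was 0.04, against 0.01 over all genes tested. The 17 members not past the test lay between -0.47 and 0.62 on the log2 scale. With the added fly RNA as the scale, no member was higher and 5 were lower under AZ5576, beside 3.27% higher and 28.5% lower over all genes at that scaling.

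Under THZ531, 5 members were higher than in DMSO (ISG15, IFI6, IFI35, IRF9 and BST2) and 4 were lower (STAT2, RIGI, XAF1 and SAMD9). The share was again 34.6%, here beside 63.4% of all genes tested (30.4% higher and 32.9% lower). The changes were wider than under AZ5576, reaching a 4.61-fold fall of RIGI and a 1.94-fold rise of ISG15, and IRF9 is taken up separately since its rise was in the row of a short transcript. The members' median log2 fold change was -0.23, against 0.00 over all genes tested. The 17 members not past the test lay between -0.76 and 0.62. With fly scaling 2 of the 26 members were higher and 8 were lower, beside 7.05% higher and 46.5% lower over all genes.

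Under YKL5124, IFI35 and RSAD2 were higher than in DMSO and IFIT3 and IFIT5 were lower, and the other 22 members tested did not pass. The share was 15.4%, beside 20.8% of all genes tested (7.25% higher and 13.5% lower). Both the members' median and that of all genes were 0.00 on the log2 scale, and the members not past the test lay between -0.65 and 0.21. With fly scaling no member was higher and 2 were lower under YKL5124, beside 3.35% higher and 12.5% lower over all genes. IFI35 was the only member past the test in the same direction under all 3 inhibitors. Of the 26 members tested, 14 passed under none of them, and no member passed in opposite directions under different inhibitors. Shares of all genes with these patterns were not taken, so the patterns cannot be read as particular to the members. The 3 comparisons share the DMSO libraries.

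**Figure D1:**
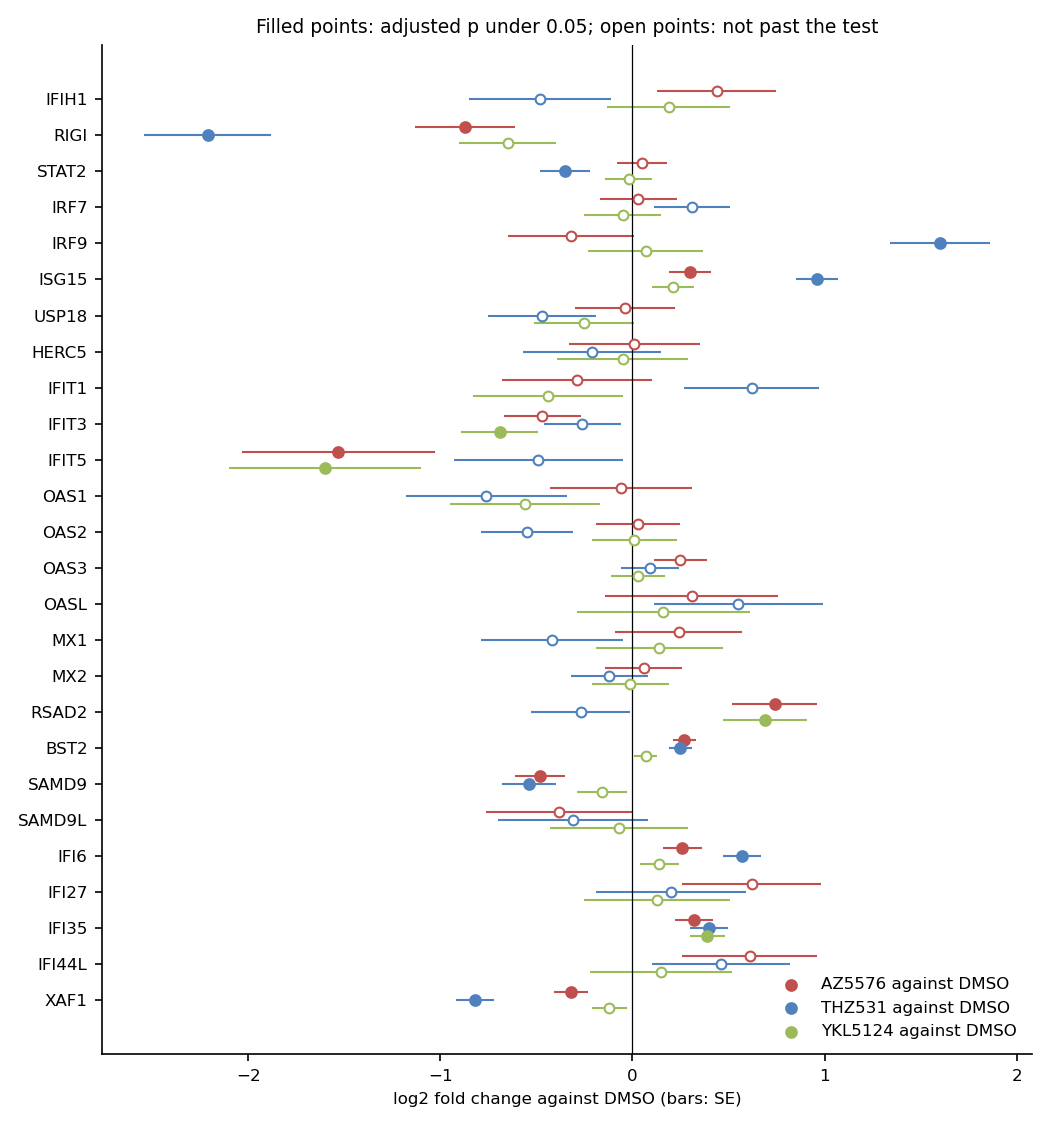
Log2 fold change of the 26 members tested under AZ5576, THZ531 and YKL5124, each against DMSO (x axis), with standard errors as bars; genes run down the page by role. Filled points passed an adjusted p of 0.05. RIGI under THZ531 stands farthest to the left at -2.21 and IRF9 under THZ531 farthest to the right at 1.60.

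TMM centres each comparison on the bulk of human genes, and that choice moved directions. Scaled by library size only, all genes tested had a median of -0.12 for AZ5576, -0.29 for THZ531 and -0.02 for YKL5124 on the log2 scale, and with fly scaling it was -0.17, -0.37 and -0.07. The share of all called genes that were higher was 44.7% for AZ5576 with TMM, 21.9% with library size and 10.3% with fly scaling. For THZ531 these shares were 48.0%, 23.2% and 13.2%, and for YKL5124 they were 34.9%, 30.2% and 21.1%. Fly counts were 8.63% to 11.1% of all counts of a library, and the fly material was added to purified RNA, so it does not carry the amount of RNA per cell.

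Sensors of viral RNA stand at the start of the antiviral response. RIGI (ENSG00000107201, chr9:32455705-32526324, minus strand in GRCh38), the cytosolic helicase that detects short viral RNA with a triphosphate end, had 2.16, 1.78 and 1.59 CPM in AZ5576, 0.521, 0.551 and 1.07 CPM in THZ531, 2.30, 2.24 and 2.00 CPM in YKL5124, and 3.11, 4.38 and 2.83 CPM in DMSO. Every inhibitor library was below every DMSO library, and the 3 THZ531 libraries were the lowest of all. These THZ531 values rest on 4, 5 and 10 counts, where 3 counts would be 0.391, 0.331 and 0.321 CPM. RIGI fell by 2.21 (log2) under THZ531 (SE 0.33, adjusted p = 8.99e-07) and by 0.87 under AZ5576 (SE 0.26, adjusted p = 0.00831). The value for YKL5124 was -0.65 (SE 0.25, adjusted p = 0.0645), which did not pass. Without AZ5576 replicate 3 or DMSO replicate 2 the AZ5576 call was lost, the value over runs that left out 1 library lying between -1.04 and -0.68, whereas the THZ531 call held in all 12 such runs. IFIH1, the helicase MDA5 that detects long double-stranded RNA, had 2.48, 0.792 and 2.00 CPM in AZ5576, 1.04, 0.772 and 1.28 CPM in THZ531, 1.58, 1.49 and 1.83 CPM in YKL5124, and 1.33, 1.33 and 1.65 CPM in DMSO. The THZ531 libraries were below the DMSO libraries, but the log2 difference of -0.48 (SE 0.37, adjusted p = 0.266) did not pass.

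The transcription factors among the members, STAT2, IRF9 and IRF7, were all tested. STAT2, the transactivating subunit of ISGF3, had 12.3, 12.9 and 14.5 CPM in AZ5576, 11.3, 9.15 and 9.84 CPM in THZ531, 10.7, 14 and 13.0 CPM in YKL5124, and 13.7, 11.7 and 13.1 CPM in DMSO. All 3 THZ531 libraries were below the DMSO libraries, and the other inhibitor groups overlapped DMSO. STAT2 fell by 0.35 under THZ531 on the log2 scale (SE 0.13, adjusted p = 0.0211). That call was lost without THZ531 replicate 2, DMSO replicate 1 or DMSO replicate 3, with values between -0.47 and -0.30, and with DESeq2. IRF7, the factor that amplifies interferon production, had 5.35, 2.97 and 3.51 CPM in AZ5576, 4.95, 4.85 and 5.35 CPM in THZ531, 3.88, 4.47 and 3.5 CPM in YKL5124, and 4.22, 3.52 and 4.40 CPM in DMSO. Its THZ531 libraries lay above DMSO without passing the test (log2 difference 0.31, SE 0.20, adjusted p = 0.177). Where every row of the table was tested on its own, 3 other rows of IRF7 passed at 0.62 to 0.63, beside 52.9% of all rows for THZ531.

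IRF9, the DNA-binding subunit of ISGF3, had a rise that depended on which row of the gene was read. The row with the most counts belongs to ENST00000561412, an annotated transcript of 2 exons that ends 3849 bases before the end of the gene (chr14:24161053-24166565, plus strand). That row had 0.799, 0.991 and 1.67 CPM in AZ5576, 4.30, 4.96 and 4.17 CPM in THZ531, 1.45, 1.68 and 1.5 CPM in YKL5124, and 1.33, 1.81 and 1.34 CPM in DMSO. The THZ531 libraries stood above every other library, by 1.60 on the log2 scale against DMSO (SE 0.26, adjusted p = 3.27e-06). The row of ENST00000396864, whose 9 exons reach the end of the gene, had 1.20, 1.78 and 0.751 CPM in AZ5576, 0.781, 2.10 and 0.428 CPM in THZ531, 1.58, 1.03 and 1.5 CPM in YKL5124, and 2.22, 1.24 and 1.73 CPM in DMSO. There the THZ531 libraries overlapped DMSO and the value was -0.71 in a fit of single rows (adjusted p = 0.142). With the row chosen in DMSO, or outside THZ531, IRF9 stood at -0.65 (SE 0.41, adjusted p = 0.161), and with rows summed at 0.39 (adjusted p = 0.0903). The last exon of ENST00000561412 also overlaps ENSG00000259529 on the same strand, and reads there cannot be assigned to one of the genes.

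A similar split was seen in OAS3 and was picked out after its values were seen. ENST00000548514, which ends 27913 bases before the end of OAS3, had 2, 2 and 1 counts in AZ5576, 11, 18 and 8 counts in THZ531, 1, 1 and 3 counts in YKL5124, and 6, 2 and 6 counts in DMSO. ENST00000551007, which ends 30946 bases before it, had 0, 0 and 1 counts in AZ5576, 7, 6 and 9 counts in THZ531, 1, 2 and 4 counts in YKL5124, and 1, 0 and 5 counts in DMSO. In both short rows the THZ531 libraries were above all others, at counts too low to be tested. The row that reaches the end of the gene did not differ in this way.

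**Figure D2:**
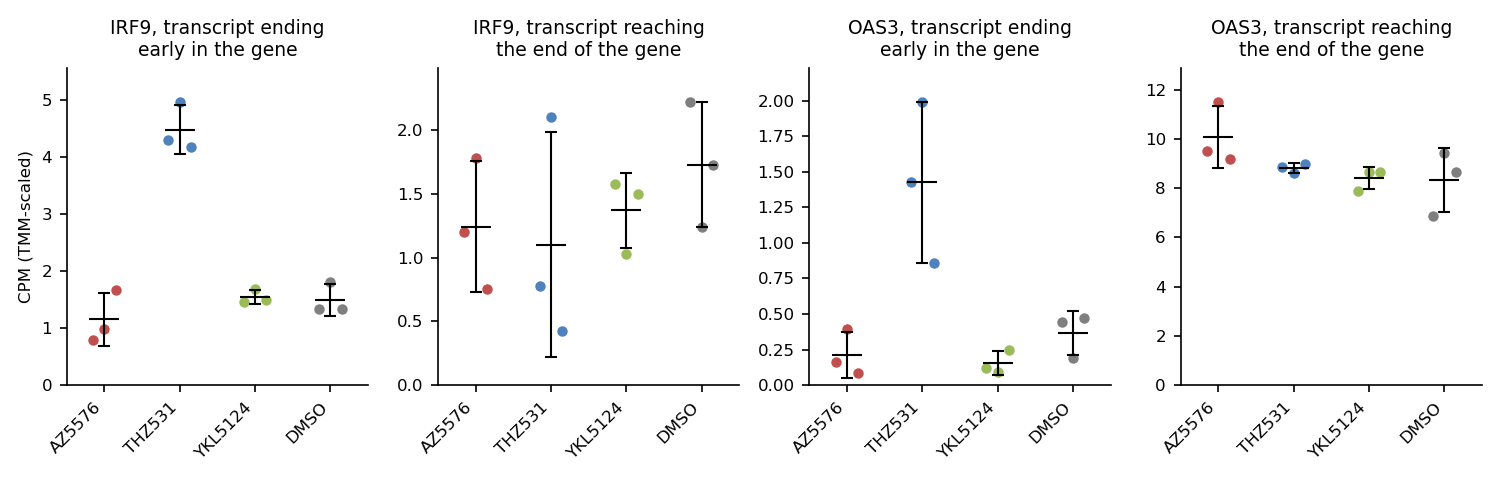
CPM of single table rows of IRF9 and OAS3 in each library of AZ5576, THZ531, YKL5124 and DMSO, with the mean and SD of 3 libraries; the y axes start at 0 and differ between panels. The early-ending rows are highest in THZ531 in both genes, and the rows that reach the end of the gene overlap DMSO in THZ531.

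The ISG15 system attaches a ubiquitin-like tag to proteins. ISG15 itself (ENSG00000187608, chr1:1001138-1014540, plus strand) had 24.8, 20.4 and 21.9 CPM in AZ5576, 33.6, 39.8 and 33.7 CPM in THZ531, 19.2, 21.3 and 22.9 CPM in YKL5124, and 18.7, 15.6 and 20.7 CPM in DMSO. The THZ531 libraries were above all other libraries, while AZ5576 and YKL5124 overlapped DMSO. ISG15 was 1.94-fold higher under THZ531 (log2 0.96, SE 0.11, adjusted p = 4.71e-09), and it was higher too when scaled by library size (0.66) or by fly counts (0.58). Under AZ5576 it was 1.23-fold higher (log2 0.30, SE 0.11, adjusted p = 0.0300), a call lost with both of these scalings and with rows summed, and without AZ5576 replicate 1, DMSO replicate 1 or DMSO replicate 2 (values between 0.21 and 0.39). USP18, the protease that removes ISG15 and dampens the receptor, had 2.24, 3.57 and 2.17 CPM in AZ5576, 1.30, 2.32 and 1.82 CPM in THZ531, 2.42, 2.05 and 2.00 CPM in YKL5124, and 2.00, 3.05 and 2.67 CPM in DMSO. HERC5, the main ligase for ISG15, had 1.92, 1.19 and 1.17 CPM in AZ5576, 1.95, 1.32 and 0.642 CPM in THZ531, 1.33, 1.68 and 1.25 CPM in YKL5124, and 1.26, 1.52 and 1.65 CPM in DMSO. Neither passed under any inhibitor, with log2 differences from DMSO between -0.47 and 0.01.

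The IFIT proteins bind viral RNA with foreign 5′ ends, and their genes sit side by side on chromosome 10. IFIT3, which steadies IFIT1 on RNA, had 3.51, 3.17 and 2.84 CPM in AZ5576, 3.52, 3.53 and 3.96 CPM in THZ531, 3.15, 2.70 and 2.41 CPM in YKL5124, and 4.74, 3.71 and 4.64 CPM in DMSO. IFIT5 had 0.479, 0.396 and 0.334 CPM in AZ5576, 1.30, 0.772 and 0.535 CPM in THZ531, 0.242, 0.186 and 0.666 CPM in YKL5124, and 1.11, 0.666 and 1.73 CPM in DMSO. For both genes the THZ531 libraries overlapped DMSO, whereas AZ5576 and YKL5124 libraries lay at or below the lowest DMSO library. IFIT3 fell by 0.69 (log2) under YKL5124 (SE 0.20, adjusted p = 0.0133) and stood at -0.47 under AZ5576 (SE 0.20, adjusted p = 0.0598). IFIT5 fell by 1.60 under YKL5124 (SE 0.50, adjusted p = 0.0207) and by 1.53 under AZ5576 (SE 0.50, adjusted p = 0.0152), from a total of 90 counts over the 12 libraries.

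These IFIT calls rested on few counts and all of them were lost with DESeq2. The IFIT3 call under YKL5124 was lost without YKL5124 replicate 3 or DMSO replicate 1, with values between -0.79 and -0.60. The IFIT5 call under YKL5124 was lost with rows summed and without YKL5124 replicate 1, YKL5124 replicate 2 or DMSO replicate 3 (values between -2.43 and -1.22), and that under AZ5576 without AZ5576 replicate 3 or DMSO replicate 3 (values between -1.77 and -1.14). IFIT1 had 1.52, 0.594 and 0.835 CPM in AZ5576, 1.56, 2.21 and 2.25 CPM in THZ531, 0.485, 1.49 and 0.833 CPM in YKL5124, and 1.48, 1.52 and 0.943 CPM in DMSO. The THZ531 libraries lay above DMSO, and the log2 difference of 0.62 (SE 0.35, adjusted p = 0.119) did not pass. IFIT2, with 39 counts in all, was not tested. The last exons of IFIT1, IFIT2 and IFIT3 overlap LIPA on the opposite strand, and the strand setting of the counting is not known here.

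The OAS enzymes make the 2′,5′-linked oligoadenylate that activates RNase L, and their genes OAS1, OAS3 and OAS2 are neighbours on chromosome 12. OAS3 had 9.51, 11.5 and 9.18 CPM in AZ5576, 8.85, 8.60 and 8.99 CPM in THZ531, 7.88, 8.67 and 8.66 CPM in YKL5124, and 6.89, 9.42 and 8.65 CPM in DMSO. OAS2 had 4.87, 4.75 and 4.17 CPM in AZ5576, 2.21, 2.54 and 4.28 CPM in THZ531, 4.24, 5.69 and 3.58 CPM in YKL5124, and 5.26, 4.85 and 3.30 CPM in DMSO. None of the 4 OAS genes passed under any inhibitor. The nearest was OAS2 under THZ531, at -0.55 (SE 0.24, adjusted p = 0.0512), and in the fit of single rows its rows of ENST00000392583 and ENST00000342315 passed, at -0.60 (adjusted p = 0.0382) and -0.98 (adjusted p = 0.00316). OAS1 had 1.60, 2.18 and 0.751 CPM in AZ5576, 0.521, 0.662 and 1.28 CPM in THZ531, 0.970, 0.746 and 1.17 CPM in YKL5124, and 1.63, 0.952 and 1.65 CPM in DMSO. OASL, which lacks the enzyme activity and helps RIG-I instead, had 0.719, 0.991 and 0.751 CPM in AZ5576, 1.30, 0.772 and 0.749 CPM in THZ531, 0.364, 0.746 and 0.916 CPM in YKL5124, and 0.519, 0.857 and 0.550 CPM in DMSO. Both overlapped DMSO in every inhibitor group.

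The dynamin-related GTPases were not past the test. MX2, which blocks nuclear import of HIV, had 5.03, 4.56 and 4.26 CPM in AZ5576, 3.91, 4.08 and 4.28 CPM in THZ531, 2.91, 5.31 and 4.75 CPM in YKL5124, and 3.85, 5.04 and 4.56 CPM in DMSO. MX1, which traps influenza nucleocapsids, had 1.92, 0.991 and 1.84 CPM in AZ5576, 0.781, 1.65 and 0.749 CPM in THZ531, 1.58, 1.68 and 1.5 CPM in YKL5124, and 1.48, 1.05 and 1.73 CPM in DMSO. Their log2 differences from DMSO ran from -0.42 to 0.24, with overlapping libraries throughout. GBP1 and GBP2, which attack the vacuoles of intracellular microbes, had 4 and 30 counts in all and were not tested.

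The restriction factors held both rises and falls. BST2 (ENSG00000130303, chr19:17402939-17405648, minus strand), or tetherin, which holds budding virions on the cell surface, had 277, 269 and 247 CPM in AZ5576, 257, 254 and 271 CPM in THZ531, 236, 217 and 237 CPM in YKL5124, and 228, 209 and 220 CPM in DMSO. AZ5576 and THZ531 libraries were all above DMSO, and YKL5124 overlapped it. BST2 was 1.20-fold higher under AZ5576 (log2 0.27, SE 0.06, adjusted p = 0.000841) and 1.19-fold higher under THZ531 (log2 0.25, SE 0.06, adjusted p = 0.000820), but the direction under THZ531 turned when libraries were scaled by size (-0.04) or by fly counts (-0.12). Under AZ5576 it stood at 0.15 and 0.07 with these scalings and passed in neither. RSAD2 (ENSG00000134321, chr2:6865806-6898239, plus strand), or viperin, which makes a chain-terminating nucleotide, had 3.43, 4.36 and 4.09 CPM in AZ5576, 1.69, 1.87 and 2.14 CPM in THZ531, 2.91, 4.10 and 4.08 CPM in YKL5124, and 2.45, 2.47 and 2.04 CPM in DMSO. AZ5576 and YKL5124 libraries were all above DMSO and THZ531 overlapped it. RSAD2 was 1.67-fold higher under AZ5576 (log2 0.74, SE 0.22, adjusted p = 0.00770) and 1.62-fold higher under YKL5124 (log2 0.69, SE 0.22, adjusted p = 0.0218). Both calls were lost with fly scaling and with rows summed, and that under YKL5124 also with DESeq2 and without YKL5124 replicate 2, YKL5124 replicate 3 or DMSO replicate 3 (values between 0.61 and 0.82).

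SAMD9 (ENSG00000205413, chr7:93099513-93118023, minus strand), a restriction factor of poxviruses, had 7.83, 7.33 and 8.18 CPM in AZ5576, 7.68, 7.17 and 7.81 CPM in THZ531, 10.5, 9.97 and 9.08 CPM in YKL5124, and 9.93, 11.1 and 12 CPM in DMSO. AZ5576 and THZ531 libraries were all below DMSO, and YKL5124 overlapped it. SAMD9 fell by 0.48 under AZ5576 (SE 0.13, adjusted p = 0.00424) and by 0.54 under THZ531 (SE 0.14, adjusted p = 0.000977) on the log2 scale, and both calls held in every other setting and with each library left out. Its neighbour SAMD9L had 0.959, 0.792 and 0.918 CPM in AZ5576, 0.911, 0.882 and 1.07 CPM in THZ531, 1.58, 1.30 and 0.666 CPM in YKL5124, and 1.41, 0.857 and 1.26 CPM in DMSO. Its groups overlapped and it passed under no inhibitor. ISG20, an RNA exonuclease, and TRIM22, a ubiquitin ligase whose last exon overlaps TRIM5, had 80 and 32 counts in all and were not tested.

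Among the IFI genes and XAF1, the changes again ran both ways. XAF1 (ENSG00000132530, chr17:6755447-6775647, plus strand), which antagonises the apoptosis inhibitor XIAP, had 27.4, 28.7 and 28.6 CPM in AZ5576, 19.1, 19.1 and 21.4 CPM in THZ531, 28.1, 33 and 35.1 CPM in YKL5124, and 36.6, 36.8 and 32.2 CPM in DMSO. AZ5576 libraries were below DMSO and THZ531 libraries were lower still, while YKL5124 overlapped DMSO. XAF1 fell by 0.82 under THZ531 (SE 0.10, adjusted p = 1.65e-08) and by 0.32 under AZ5576 (SE 0.09, adjusted p = 0.00571) on the log2 scale, and both calls held in every other setting and with each library left out. Each of the 3 rows of XAF1 that could be tested on its own passed under THZ531, at -0.82 to -0.94, and under AZ5576 the row of ENST00000346752 did not (-0.11, adjusted p = 0.744). IFI6 (ENSG00000126709, chr1:27666061-27672218, minus strand), a small membrane protein that limits apoptosis and flavivirus replication, had 22.6, 18.8 and 23.2 CPM in AZ5576, 26.7, 25.3 and 29.5 CPM in THZ531, 19.2, 21.1 and 20.2 CPM in YKL5124, and 17.8, 17.2 and 19.7 CPM in DMSO. The THZ531 libraries were above DMSO and the other inhibitor groups overlapped it. IFI6 was 1.49-fold higher under THZ531 (log2 0.57, SE 0.10, adjusted p = 1.19e-05), a call lost with fly scaling (0.20, adjusted p = 0.223). Under AZ5576 it was 1.20-fold higher (log2 0.26, SE 0.10, adjusted p = 0.0371), a call lost in 6 of 10 alternative settings and without AZ5576 replicate 1, AZ5576 replicate 3, DMSO replicate 1 or DMSO replicate 2 (values between 0.21 and 0.33).

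IFI35 (ENSG00000068079, chr17:43006725-43014456, plus strand), a leucine zipper protein that partners NMI, had 22.2, 22.6 and 24.7 CPM in AZ5576, 25.8, 23.4 and 25.0 CPM in THZ531, 22.2, 25.8 and 25.0 CPM in YKL5124, and 17.9, 19.0 and 19.2 CPM in DMSO. All 9 inhibitor libraries were above the 3 DMSO libraries. IFI35 was higher by 0.32 under AZ5576 (SE 0.10, adjusted p = 0.00908), by 0.40 under THZ531 (SE 0.10, adjusted p = 0.000578) and by 0.39 under YKL5124 (SE 0.09, adjusted p = 0.00301) on the log2 scale. With fly scaling it passed under none of them, with library size alone it passed under YKL5124, and without AZ5576 replicate 3 the AZ5576 call was lost (values between 0.26 and 0.36). IFI44L, a relative of the antiviral IFI44, had 1.04, 2.38 and 2.59 CPM in AZ5576, 1.56, 1.43 and 2.14 CPM in THZ531, 1.45, 1.68 and 1.08 CPM in YKL5124, and 1.63, 1.24 and 0.865 CPM in DMSO. IFI27 had 1.52, 3.37 and 1.67 CPM in AZ5576, 1.30, 1.10 and 1.93 CPM in THZ531, 0.970, 1.49 and 1.58 CPM in YKL5124, and 0.667, 1.71 and 1.49 CPM in DMSO. Both overlapped DMSO in every group and did not pass. IFI44 had 26 counts in all and was not tested. CXCL10, the chemokine most often used as a readout of interferon, was at 0 in all 12 libraries, where 3 counts would be 0.222 to 0.594 CPM.

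**Figure D3:**
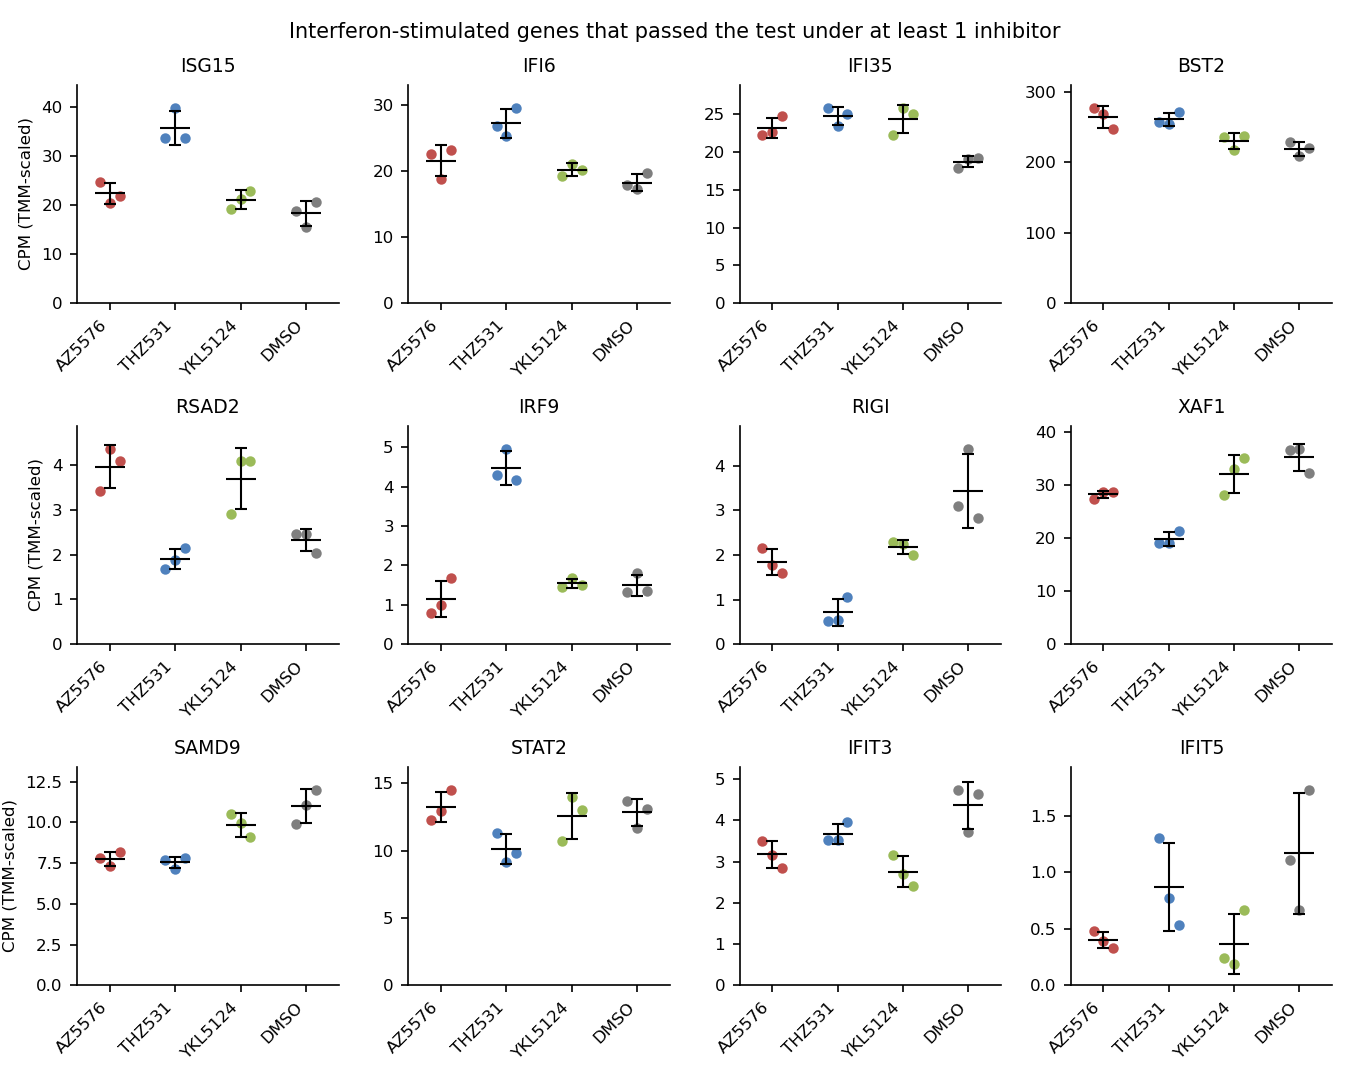
CPM of the 12 members that passed the test against DMSO under at least 1 inhibitor, in each library of AZ5576, THZ531, YKL5124 and DMSO (x axis), with the mean and SD of 3 libraries; y axes start at 0. ISG15 is highest in THZ531 (33.6 to 39.8 CPM), XAF1 is lowest in THZ531 (19.1 to 21.4 CPM), and RSAD2 is high in AZ5576 and YKL5124.

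Between inhibitors, 9 members passed for THZ531 against AZ5576, 10 for THZ531 against YKL5124 and 1 for AZ5576 against YKL5124. For THZ531 against AZ5576, 4 members were higher (ISG15, IFIT1, IFI6 and IRF9) and 5 were lower (IFIH1, RSAD2, STAT2, RIGI and XAF1), or 34.6% of those tested beside 55.0% of all genes (27.1% higher and 27.8% lower). For THZ531 against YKL5124, 5 were higher (ISG15, IFIT1, IFI6, IRF9 and BST2) and 5 were lower (RSAD2, STAT2, RIGI, XAF1 and SAMD9), or 38.5% beside 61.0% of all genes (30.5% higher and 30.5% lower). For AZ5576 against YKL5124 only BST2 passed, being higher by 0.20 in log2 (SE 0.06, adjusted p = 0.0256), or 3.85% beside 15.8% of all genes (6.23% higher and 9.6% lower). The BST2 call in that pair was lost without AZ5576 replicate 1, AZ5576 replicate 2 or YKL5124 replicate 2 (values between 0.16 and 0.25), and with library size (0.10), with fly scaling (0.07) and with only the 6 libraries compared.

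Outside the short IRF9 row, RIGI had the widest difference past the test in both pairs with THZ531. In log2 it was -1.34 between THZ531 and AZ5576 (SE 0.38, adjusted p = 0.00326) and -1.56 between THZ531 and YKL5124 (SE 0.36, adjusted p = 0.000455). RSAD2 differed by -1.01 between THZ531 and AZ5576 (SE 0.25, adjusted p = 0.000819) and by -0.97 between THZ531 and YKL5124 (SE 0.24, adjusted p = 0.00108). ISG15 differed by 0.66 between THZ531 and AZ5576 (SE 0.11, adjusted p = 5.30e-06) and by 0.75 between THZ531 and YKL5124 (SE 0.11, adjusted p = 4.82e-07). XAF1 differed by -0.50 (SE 0.10, adjusted p = 0.000120) and -0.70 (SE 0.10, adjusted p = 5.07e-07) in the same pairs. The IRF9 differences of 1.91 and 1.53 became -0.02 and -0.32, neither past the test, with the row chosen in DMSO.

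The other calls between inhibitors were lost in at least 1 setting or without at least 1 library. IFIT1 was higher in THZ531 than in AZ5576 by 0.91 (SE 0.38, adjusted p = 0.0423) and than in YKL5124 by 1.06 (SE 0.38, adjusted p = 0.0173). These calls were lost with both library size and fly scaling, without THZ531 replicate 2 or THZ531 replicate 3, and in turn without AZ5576 replicate 2 or 3 and without YKL5124 replicate 1 or 3, with values between 0.72 and 1.4 in the AZ5576 pair and between 0.81 and 1.54 in the YKL5124 pair. The call against AZ5576 was also lost with DESeq2 and with rows summed. IFIH1 was lower in THZ531 than in AZ5576 (-0.91, SE 0.36, adjusted p = 0.0332), a call lost without AZ5576 replicate 1, AZ5576 replicate 3, THZ531 replicate 1 or THZ531 replicate 2 (values between -1.15 and -0.62), with DESeq2 and with rows summed (-0.66). STAT2 was lower in THZ531 than in AZ5576 (-0.40, adjusted p = 0.0139) and than in YKL5124 (-0.33, adjusted p = 0.0366). The first was lost without AZ5576 replicate 3 (-0.31), and the second without THZ531 replicate 2, THZ531 replicate 3, YKL5124 replicate 2 or YKL5124 replicate 3 (values between -0.45 and -0.25), with DESeq2 and without the filter. IFI6 was higher in THZ531 than in AZ5576 by 0.31 (adjusted p = 0.0109) and than in YKL5124 by 0.43 (adjusted p = 0.000542), both lost with library size and fly scaling, and the first also without AZ5576 replicate 2 or THZ531 replicate 3 (values between 0.20 and 0.36). BST2 in THZ531 against YKL5124 (0.18, adjusted p = 0.0121) turned to -0.09 with library size and -0.12 with fly scaling, and its call was lost without any 1 of the 3 THZ531 libraries and without YKL5124 replicate 2 (values between 0.11 and 0.21), and with only the 6 libraries compared. SAMD9 was lower in THZ531 than in YKL5124 (-0.38, adjusted p = 0.0221), a call lost without YKL5124 replicate 1 or 2 (values between -0.44 and -0.33) and without the filter.

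Upstream of the members, the list of interferons and their receptors had 15 genes, of which 5 could be tested. All 9 interferon genes in it, IFNB1 and IFNG among them, were at 0 in every library. IFNAR2, the high-affinity chain of the type I receptor, had 79.5, 65.4 and 74.6 CPM in AZ5576, 23.2, 26.1 and 23.2 CPM in THZ531, 101, 111 and 107 CPM in YKL5124, and 159, 149 and 168 CPM in DMSO. Its groups did not overlap. IFNAR2 fell by 2.71 (log2) under THZ531 (SE 0.08, adjusted p = 1.14e-21), by 1.10 under AZ5576 (SE 0.07, adjusted p = 2.55e-13) and by 0.58 under YKL5124 (SE 0.07, adjusted p = 2.47e-07), in every other setting and with each library left out. The last exon of its row overlaps IL10RB-DT on the opposite strand. IFNAR1, the other chain, had 51.4, 46.0 and 48.4 CPM in AZ5576, 37.4, 39.8 and 41.5 CPM in THZ531, 56.0, 49.7 and 46.9 CPM in YKL5124, and 56.0, 55.6 and 57.6 CPM in DMSO. It fell by 0.51 under THZ531 (adjusted p = 2.30e-06) and by 0.21 under AZ5576 (adjusted p = 0.0340), the AZ5576 call being lost with DESeq2, with rows summed and without AZ5576 replicate 2, AZ5576 replicate 3, DMSO replicate 1 or DMSO replicate 3 (values between -0.25 and -0.17). Over the list, 3 genes were lower and 1 higher under AZ5576, 4 lower and 1 higher under THZ531, and 1 each way under YKL5124, of 5 genes tested. Of all genes, 23.1%, 32.9% and 13.5% were lower and 18.6%, 30.4% and 7.25% higher under the 3 inhibitors. IL10RB, the shared chain of the type III receptor, was the gene higher under AZ5576 (0.32, adjusted p = 5.82e-05) and under YKL5124 (0.18, adjusted p = 0.0255), both lost with fly scaling, and that under YKL5124 also without YKL5124 replicate 2 or 3 or DMSO replicate 2 or 3 (values between 0.15 and 0.20) and without the filter. Under THZ531 IL10RB was lower, with a mean of 136 CPM beside 151 CPM in DMSO. The gene higher under THZ531 was IFNGR1, which was lower under AZ5576.

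In the relay of kinases, STATs and their brakes, 13 of 14 genes were tested, with 3 higher and 4 lower under AZ5576, 4 higher and 3 lower under THZ531, and 2 higher and 1 lower under YKL5124. These shares lay near those of all genes under AZ5576 (23.1% higher and 30.8% lower, beside 18.6% and 23.1%) and THZ531 (30.8% and 23.1%, beside 30.4% and 32.9%), and were 15.4% and 7.69% under YKL5124, beside 7.25% and 13.5%. With fly scaling no gene of the relay was higher under any inhibitor, beside 3.27%, 7.05% and 3.35% of all genes under AZ5576, THZ531 and YKL5124. In the same order 5, 5 and 1 of the 13 were lower, beside 28.5%, 46.5% and 12.5% of all genes. PIAS1, an inhibitor of STAT signalling, fell under AZ5576 by 0.37 (adjusted p = 0.000131), under THZ531 by 0.63 (adjusted p = 1.49e-08) and under YKL5124 by 0.38 (adjusted p = 0.000180), with the calls under AZ5576 and YKL5124 lost when rows were summed (-0.12 and -0.17). PTPN2, a phosphatase that acts on JAK kinases, fell by 0.96 under AZ5576 (adjusted p = 1.89e-06), a call lost in the row with the most counts outside THZ531 (-0.18). PTPN1, a phosphatase of TYK2, fell by 0.36 under THZ531 (adjusted p = 4.08e-06), and PTPN11 was higher by 0.28 under YKL5124 (adjusted p = 0.00229). PTPN1 was also lower under AZ5576, and PTPN11 was also higher under AZ5576 and THZ531.

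Of 9 further interferon regulatory factors, 6 were tested and none was higher, beside 18.6%, 30.4% and 7.25% of all genes under AZ5576, THZ531 and YKL5124. The lower genes were 3 under AZ5576, 5 under THZ531 and 3 under YKL5124, or 50.0%, 83.3% and 50.0%, beside 23.1%, 32.9% and 13.5% of all genes. IRF1, an activator of many of the same promoters, had 6.71, 3.96 and 6.68 CPM in AZ5576, 22.3, 21.8 and 21.9 CPM in THZ531, 21.8, 16.6 and 16.9 CPM in YKL5124, and 26.5, 27.8 and 25.2 CPM in DMSO. It fell by 2.10 under AZ5576 (SE 0.13, adjusted p = 1.27e-13), by 0.27 under THZ531 (SE 0.11, adjusted p = 0.0364) and by 0.54 under YKL5124 (SE 0.11, adjusted p = 0.000546), with IRF1-AS1 over its last exon on the opposite strand. The THZ531 call was lost without THZ531 replicate 2 or 3 or DMSO replicate 1 or 2 (values between -0.30 and -0.23), and with DESeq2 (-0.26, adjusted p = 0.0724). IRF2BP2, a co-repressor with IRF2, fell by 0.65 under AZ5576 (adjusted p = 2.41e-10) and by 1.10 under YKL5124 (adjusted p = 1.02e-14), and was also lower under THZ531. IRF2, a repressor of IRF1 targets, fell by 1.70 under THZ531 (adjusted p = 4.74e-06), and IRF8, a myeloid factor, fell by 0.63 (adjusted p = 6.75e-06).

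Among 20 genes of nucleic acid sensing and its relay, 14 were tested and none was higher, beside 18.6%, 30.4% and 7.25% of all genes under AZ5576, THZ531 and YKL5124. The lower genes were 7 under AZ5576, 6 under THZ531 and 5 under YKL5124, or 50.0%, 42.9% and 35.7%, beside 23.1%, 32.9% and 13.5% of all genes. CGAS, the sensor of cytosolic DNA, fell by 1.34 under AZ5576 (SE 0.14, adjusted p = 9.30e-09) and by 0.85 under YKL5124 (SE 0.13, adjusted p = 1.63e-05). TLR4, the receptor for lipopolysaccharide, fell by 0.99 under AZ5576 (adjusted p = 8.38e-07) and was also lower under THZ531 and YKL5124. MAVS, the mitochondrial adaptor of RIG-I and MDA5, had 104, 91.9 and 106 CPM in AZ5576, 38.8, 32.1 and 32.9 CPM in THZ531, 115, 117 and 115 CPM in YKL5124, and 125, 111 and 115 CPM in DMSO. The THZ531 libraries were far below all others, with a fall of 1.76 (SE 0.08, adjusted p = 1.12e-17), and MAVS was also lower under AZ5576. TRAF3, which links MAVS to kinases, fell by 1.06 under THZ531 (adjusted p = 9.96e-10), and IKBKE, one of those kinases, fell by 0.46 under YKL5124 (adjusted p = 0.00320). IKBKE was also lower under AZ5576 and THZ531.

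A list of 35 further interferon-induced genes had 32 tested, with 5 higher and 9 lower under AZ5576, 10 higher and 13 lower under THZ531, and 2 higher and 5 lower under YKL5124. The shares were near those of all genes, at 15.6% higher and 28.1% lower under AZ5576 (all genes 18.6% and 23.1%), 31.2% and 40.6% under THZ531 (30.4% and 32.9%), and 6.25% and 15.6% under YKL5124 (7.25% and 13.5%). With fly scaling the genes that were higher numbered 0 under AZ5576, 3 under THZ531 and 0 under YKL5124, beside 3.27%, 7.05% and 3.35% of all genes. In the same order 10, 17 and 5 of the 32 were lower, beside 28.5%, 46.5% and 12.5% of all genes. ZC3HAV1, the antiviral protein ZAP that binds CpG-rich RNA, had 55.2, 47.0 and 48.3 CPM in AZ5576, 636, 680 and 714 CPM in THZ531, 55.9, 59.5 and 58.3 CPM in YKL5124, and 92.3, 94.2 and 92.2 CPM in DMSO. It was 7.28-fold higher under THZ531 (log2 2.86, SE 0.07, adjusted p = 1.92e-24) and fell by 0.88 under AZ5576 (SE 0.07, adjusted p = 2.79e-11) and by 0.68 under YKL5124 (SE 0.07, adjusted p = 9.37e-09). PML, the organiser of nuclear bodies, was higher by 2.39 under THZ531 (SE 0.10, adjusted p = 1.73e-18) in the row with the most counts, and stood at -1.98 (adjusted p = 5.13e-11) in the row with the most counts outside THZ531 and at 0.70 (adjusted p = 8.10e-05) with rows summed. Under YKL5124 PML fell by 0.71 (adjusted p = 0.000136), against 0.33 (adjusted p = 0.0640) in that other row and -0.13 (adjusted p = 0.522) with rows summed. In the row with the most counts PML was also lower under AZ5576. TNFSF10, the death ligand TRAIL, fell by 1.31 under AZ5576 (SE 0.12, adjusted p = 4.59e-10) and was also lower under THZ531 and YKL5124.

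Antigen presentation, which interferon also raises, had 15 of 16 genes tested, with 10 higher and none lower under AZ5576, 12 higher and 1 lower under THZ531, and 3 higher and none lower under YKL5124. The higher genes were 66.7%, 80.0% and 20.0% of those tested, beside 18.6%, 30.4% and 7.25% of all genes. With fly scaling no gene of the list was higher under any inhibitor, beside 3.27%, 7.05% and 3.35% of all genes under AZ5576, THZ531 and YKL5124. At that scaling 2 of the 15 were lower under THZ531, beside 46.5% of all genes. With library size 3, 5 and 1 were higher under AZ5576, THZ531 and YKL5124, beside 8.38%, 13.9% and 6.3% of all genes. HLA-C, a class I heavy chain, had 320, 341 and 314 CPM in AZ5576, 373, 385 and 373 CPM in THZ531, 274, 285 and 293 CPM in YKL5124, and 258, 253 and 251 CPM in DMSO. All inhibitor libraries were above DMSO, by 0.35 under AZ5576 (SE 0.06, adjusted p = 9.36e-06), 0.57 under THZ531 (SE 0.06, adjusted p = 5.42e-10) and 0.16 under YKL5124 (SE 0.06, adjusted p = 0.0409) on the log2 scale. HLA-B, another heavy chain, was higher under AZ5576 by 0.28 (adjusted p = 0.000199), and B2M, the light chain, under YKL5124 by 0.22 (adjusted p = 0.0209). HLA-B was also higher under THZ531, and B2M under AZ5576 and THZ531. The B2M call under YKL5124 was lost with rows summed and without YKL5124 replicate 2 or 3 or DMSO replicate 2 (values between 0.13 and 0.27). The HLA-C call under YKL5124 was lost with library size, without the filter, with a replicate block, and without AZ5576 replicate 1, YKL5124 replicate 2, YKL5124 replicate 3 or any 1 of the 3 DMSO libraries (values between 0.14 and 0.18). The gene that was lower under THZ531 was NLRC5, the activator of class I promoters, with 16.9, 16.6 and 20.8 CPM in AZ5576, 3.65, 2.54 and 4.06 CPM in THZ531, 19.3, 18.9 and 21.3 CPM in YKL5124, and 14.9, 20.8 and 17.5 CPM in DMSO. It fell by 2.36 (SE 0.17, adjusted p = 6.47e-13).

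**Figure D4:**
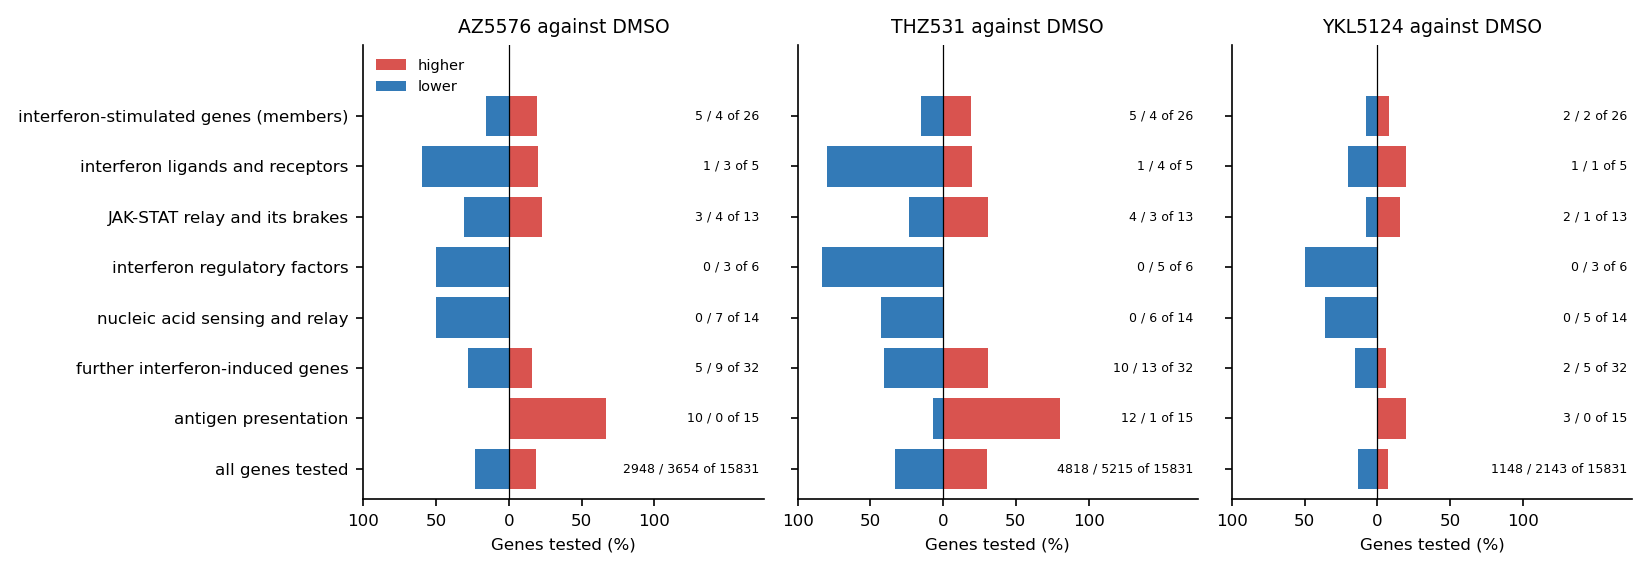
Share of tested genes that were higher (right of 0) or lower (left of 0) than DMSO at an adjusted p under 0.05, for the members, the 6 other interferon lists and all genes tested, under each inhibitor; the text at the right of each bar gives higher, lower and tested genes. Members were called in 34.6%, 34.6% and 15.4% of tested genes under AZ5576, THZ531 and YKL5124, beside 41.7%, 63.4% and 20.8% of all genes.

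Member genes differ in length from 2381 to 70620 bp, with a median of 20132 bp, against 31776 bp in the 11671 protein-coding genes tested. Length is the span of the whole annotated gene, which can be longer than the transcript whose row was counted. For ISG15 that span is 13403 bp from 1001138, whereas its promoter sequence above starts at 1013364. Under THZ531 the members' log2 fold change ran with gene length, at a Spearman correlation of -0.53 over 26 genes and -0.48 over the 25 without IRF9, whose value depends on the row, against -0.15 over the protein-coding genes. Under AZ5576 the values were 0.05 over the members and 0.10 over the protein-coding genes, and under YKL5124 they were -0.02 and 0.15. Of the 9 members called under THZ531, 7 were shorter than the median member. Of these, ISG15, IFI6, IFI35, IRF9 and BST2 were higher with TMM and STAT2 and SAMD9 lower, where BST2 turned with both other scalings and IRF9 with the row chosen in DMSO. The 2 others, RIGI, the longest member, and XAF1, were lower. Shares of all genes called by length were not taken, so this split cannot be read as an effect of length or as particular to the members. These correlations are descriptions across genes that share libraries and depth.

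**Figure D5:**
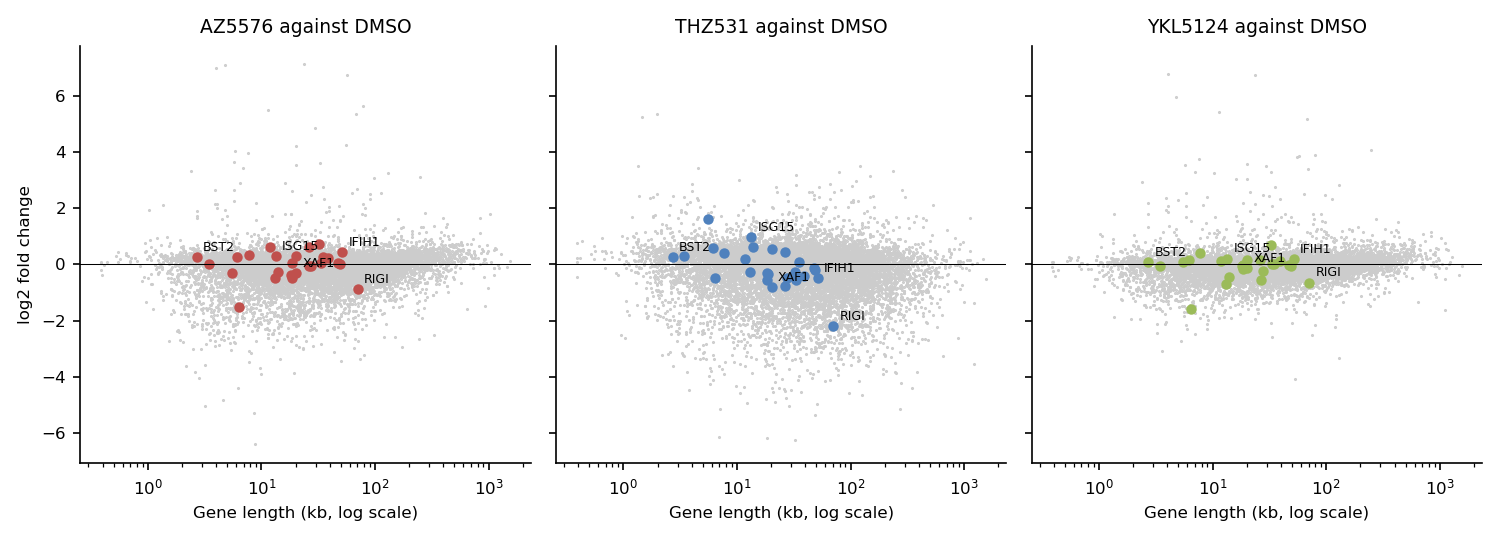
Gene length in kb on a log scale (x axis) against the log2 fold change from DMSO (y axis) under AZ5576, THZ531 and YKL5124; grey points are protein-coding genes tested and coloured points are the 26 members. In THZ531 the members run downward from left to right (Spearman -0.53), with RIGI lowest at -2.21.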

How the data were processed

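The authors deposited raw read counts as whole numbers in 295100 table rows, for 12 libraries of 3′ mRNA sequencing. Per the submitters' processing notes, hg38 and dm6 were the builds and edgeR 3.32.1, Trim Galore 0.6.5 and bcl2fastq 2.17.1.14 were used. No aligner, counter, annotation or strand setting was given in the sources used here. The 3 columns named UT, a name in no label, were taken as DMSO, the only group left. Rows were taken as overlapping stretches of transcripts, though the sources give no coordinates for them. For that reason 1 row stood for each gene, the one with the most counts in all 12 libraries together, named through GENCODE 29. Rows that matched no gene held 0.655% to 0.719% of human counts and entered neither library sizes nor tests. Of genes with identical counts, 94 were dropped. Two-sided edgeR 4.0.16 quasi-likelihood tests in R 4.3.3 (limma 3.58.1, TMM, filterByExpr minimum count 10) used 1 fit of all 12 libraries with group as the term, with Benjamini-Hochberg adjustment over 15831 genes and a threshold of 0.05. Standard errors are log2 fold changes divided by the root of F. These errors include the fitted spread between libraries, whereas floors of 3 counts cover counting error only.

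The members, the other interferon lists and the rule for named genes were chosen with earlier results of these data known. That rule takes members called in at least 1 inhibitor comparison with a mean of at least 5 CPM, up to 4 members per role, the 2 smallest adjusted p per list and inhibitor, and a few genes fixed by name, of which IFNB1, IFNAR1 and IRF1 are given; 1 gene of the relay list is not reported here. Other low members were named in addition. Libraries of 1 group differed by more than sampling noise (chi-square 1.73 to 4.97 per gene). Alternatives were RLE, library size and fly scaling, DESeq2 1.42.0, no filter, rows summed, other row choices, only the 6 libraries compared, a replicate block and leaving out each library. The row chosen outside THZ531 and the test of single rows were chosen after seeing the data. The tests were also run on simulated counts drawn with the fitted spread, in which few genes changed, up or down, under AZ5576 only. That run cannot check the scaling where many genes change.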

Additional observations from a re-analysis of the deposited data

How the results depend on the processing

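Of the 22 calls of members against DMSO, 22 were kept with RLE scaling, 16 when scaled by library size, 12 when scaled by fly counts, 16 with DESeq2, 21 without the filter, 16 with rows summed, 21 with the row chosen in DMSO or outside THZ531, 19 with only the 6 libraries compared, and 18 to 22 when 1 library was left out. Depth limits the 7 members not tested, those under about 200 counts in all, and RIGI in THZ531, with 4, 5 and 10 counts. Same-numbered libraries did not deviate together (correlations from -0.335 to 0.239 over 8394 genes), and the fit with a replicate block kept 22 of 22 calls, lost those of IFIT1 and IFIH1 for THZ531 against AZ5576 and of HLA-C under YKL5124, and gave a median of -0.17 for THZ531 against AZ5576.

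With library size alone, members called higher were 1 (AZ5576 against DMSO), 3 (THZ531 against DMSO), 0 (AZ5576 against YKL5124), 2 (THZ531 against AZ5576) and 2 (THZ531 against YKL5124), and members called lower were 8, 2 and 8 for THZ531 against DMSO, AZ5576 against YKL5124 and THZ531 against YKL5124. The medians were -0.08, -0.52, -0.02, -0.32 and -0.32 in the order of those 5 pairs. Over all 15831 genes tested, 1327, 2193, 273, 2881 and 2366 were higher in the 5 pairs with library size alone. The all-gene medians there were -0.12, -0.29, -0.09, -0.18 and -0.26. In the pairs given for lower members, 7264, 2391 and 6988 of all genes were lower. With fly scaling, members called higher were 0, 2, 0, 2 and 2 in the 5 pairs and 0 for YKL5124 against DMSO. For THZ531 against DMSO 8 were lower, and the medians in the 5 pairs were -0.13, -0.60, -0.03, -0.34 and -0.35. Of all 15831 genes, 517, 1116, 147, 2300 and 1677 were higher in the 5 pairs with fly scaling and 530 for YKL5124 against DMSO. For THZ531 against DMSO 7355 were lower, and the all-gene medians in the 5 pairs were -0.17, -0.37, -0.11, -0.20 and -0.29. With rows summed, members called higher were 2 for AZ5576 and 1 for YKL5124 against DMSO, 1 was lower for YKL5124, and the medians were -0.07 for THZ531 against AZ5576 and 0.04 for THZ531 against YKL5124. Of all 16822 genes tested that way, 2622 were higher for AZ5576 and 866 for YKL5124 against DMSO, and 1819 were lower for YKL5124. The all-gene medians were -0.02 for THZ531 against AZ5576 and 0.00 for THZ531 against YKL5124. With DESeq2, 1 member was higher and 0 lower for YKL5124 against DMSO (edgeR 2 each way), and the median for THZ531 against AZ5576 was -0.17. Of all 15831 genes, 1064 were higher and 1528 lower for YKL5124 against DMSO with DESeq2 (edgeR 1148 and 2143). The all-gene median for THZ531 against AZ5576 was -0.02. With only the 6 libraries compared, 1 member was lower for YKL5124 against DMSO, 0 were higher for AZ5576 against YKL5124, and the medians were -0.21 and -0.17 for THZ531 against AZ5576 and YKL5124. Beside these, 1989 of 15200 genes were lower and 641 of 15018 higher in the same pairs, and both all-gene medians were -0.02. Without the filter 3 members were lower for THZ531 against YKL5124, and the medians were -0.06, -0.09 and 0.05 for THZ531 against DMSO, AZ5576 and YKL5124. Of all 30599 genes, 5192 were lower for THZ531 against YKL5124, and the all-gene median was 0.00 in each of these pairs. The row chosen in DMSO or outside THZ531 gave members a median of -0.13 for THZ531 against YKL5124, beside 0.01 over all genes.

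Directions turned for STAT2 under AZ5576 (-0.08 with library size, -0.13 with fly scaling, -0.04 without AZ5576 replicate 3 and -0.01 without DMSO replicate 2, over a range of -0.04 to 0.11 when 1 library was left out) and under YKL5124 (0.00 with RLE and DESeq2, 0.02 to 0.06 without DMSO replicate 1 or YKL5124 replicate 1). They turned for IRF9 with the row chosen in DMSO or outside THZ531 (THZ531 -0.65 and YKL5124 -0.34 against DMSO, THZ531 -0.02 against AZ5576 and -0.32 against YKL5124), with rows summed under YKL5124 (-0.41), and under YKL5124 without DMSO replicate 1 (-0.01) or 3 (0.00), over a range of -0.01 to 0.21. BST2 turned with library size for THZ531 against DMSO (-0.04) and YKL5124 (-0.09), and with fly scaling for these pairs (-0.12 each) and for YKL5124 against DMSO (0.00). PML turned with the row chosen outside THZ531 (-1.98 under THZ531, 0.33 under YKL5124). The cause was not tested.

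Leaving out 1 library gave 3 to 5 members higher and 2 to 4 lower for AZ5576 against DMSO (median 0.04 to 0.16), 5 higher and 3 to 6 lower for THZ531 (median -0.25 to -0.10), and 1 to 2 each way for YKL5124 (median -0.11 to 0.06). Of all genes tested in these runs, 16145 to 16247, 2419 to 3087 were higher and 3142 to 3718 lower for AZ5576. For THZ531 4164 to 4918 were higher and 4937 to 5540 lower, and for YKL5124 861 to 1409 and 1715 to 2196. Between inhibitors these runs gave 0 to 1 members higher for AZ5576 against YKL5124 (median -0.02 to 0.16), 2 to 5 higher and 4 to 6 lower for THZ531 against AZ5576 (median -0.16 to -0.06), and 3 to 5 higher and 3 to 6 lower for THZ531 against YKL5124 (median -0.06 to 0.06). Of all genes, 511 to 1183 were higher in the first pair. The second had 3584 to 4444 higher and 4078 to 4656 lower, and the third 4032 to 4995 and 4568 to 5253.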
